A study of Sus scrofa with 8 samples.

Results

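LIF, IGFBP2 and VEGFA are 3 genes known for their part in implantation, out of 2389 genes that could be named on a porcine array, and 5 of its 43603 probes carried a RefSeq transcript accession of 1 of them. LIF had 1 probe (A_72_P223932), IGFBP2 had 2 (A_72_P634395 and A_72_P178161) and VEGFA had 2 (A_72_P414353 and A_72_P441494). The genes were selected on their log2 difference between pregnant and non-pregnant sows in these same arrays. The differences between the groups are therefore given as a description, with no test.

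The blood came from 4 pregnant and 4 non-pregnant sows (Sus scrofa), all at day 14 after insemination and in the fifth parity. Each sow was measured on 1 single-colour array, on 2 slides that each held 2 arrays per group: replicates 1 and 3 on slide 1, replicates 2 and 4 on slide 2. The design names 3 half-sib pairs and 1 unrelated pair, and no label says which sows were paired. In whole blood, fewer cells of a type and less RNA per cell cannot be told apart, and differences between animals and between arrays cannot be told apart either.

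LIF is a secreted cytokine of the interleukin-6 family that signals through the receptor chains LIFR and IL6ST to JAK kinases and STAT3, and in the pig it is made by the endometrium around attachment of the conceptus. IGFBP2 is a secreted protein that binds insulin-like growth factors, IGF2 with preference, and limits their access to the receptor. VEGFA is the main growth factor of blood vessels, induced by hypoxia through HIF1A and read by the receptors FLT1 and KDR. Activated leukocytes can make LIF and VEGFA as well.

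Unless given as spot signal, values are log2 of the processed spot signal minus the log2 of the 75th percentile of that array, so that -1 is a signal at 50% of that percentile. The 75th percentile ran from 142 to 296 intensity units. It was lowest on pregnant replicate 2, which also stood apart over all probes: over 26480 probes the lowest r of any pair of arrays was 0.870 and the highest 0.984, and the lowest was 0.946 once it was left out. Markers of blood cells were well above background on all 8 arrays for 9 of 9 T cell genes, 8 of 8 monocyte and macrophage genes and 6 of 6 platelet genes that the array could name. The progesterone receptor PGR and the transferrin receptor TFRC were not well above background on any array. They were exceptions among the genes of their lists that the array could name. Well above background on all 8 arrays were 4 of 5 epithelial and conceptus genes and 2 of 3 erythroid genes. The same held for 3 of 6 liver genes. Precision is limited by having 4 arrays in a group.

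The LIF probe gave a higher mean in pregnant sows, with sows of each group spread widely. It read -3.60, -0.98, -3.02 and -2.26 in pregnant replicates 1 to 4, against -4.16, -3.13, -2.61 and -4.11 in non-pregnant replicates 1 to 4. Pregnant replicates 2 and 4 were the highest of the 8, while pregnant replicate 1 lay below non-pregnant replicates 2 and 3, so the groups overlapped. The means were -2.46 ± 1.13 in pregnant and -3.51 ± 0.76 in non-pregnant sows (SD, n = 4 each), a log2 difference of 1.04 (SE 0.57 from limma's moderated fit), or 2.06-fold. All 4 pregnant values lay above the non-pregnant median.

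The difference in LIF came mostly from slide 2. Within slide 1 pregnant minus non-pregnant was 0.078 on the log2 scale, and within slide 2 it was 2.00. With pregnant replicate 2 left out it was 0.54. Under another background correction (normexp) the LIF difference was -0.71, or 0.28 once spots with a very bright local background were left out of that fit. Array weights gave 0.53. Sows of 1 group differed more at this probe than at most others: its within-group SD was 0.96, where the median over 3978 probes within 0.5 of its level was 0.58.

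The LIF spot is given next in units of signal. Its processed signal was 24.4, 72.3, 28.6 and 46.4 in pregnant sows and 12.9, 28.4, 34.9 and 10.1 in non-pregnant sows. It was well above background on 4 pregnant and 3 non-pregnant arrays, non-pregnant replicate 4 being the exception. The signal there was 4.29 times the scanner's error estimate for the spot, and on pregnant replicate 2 it was 9.51 times. The probe entered the fit through the pregnant group, in which it was the higher.

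**Figure D1:**
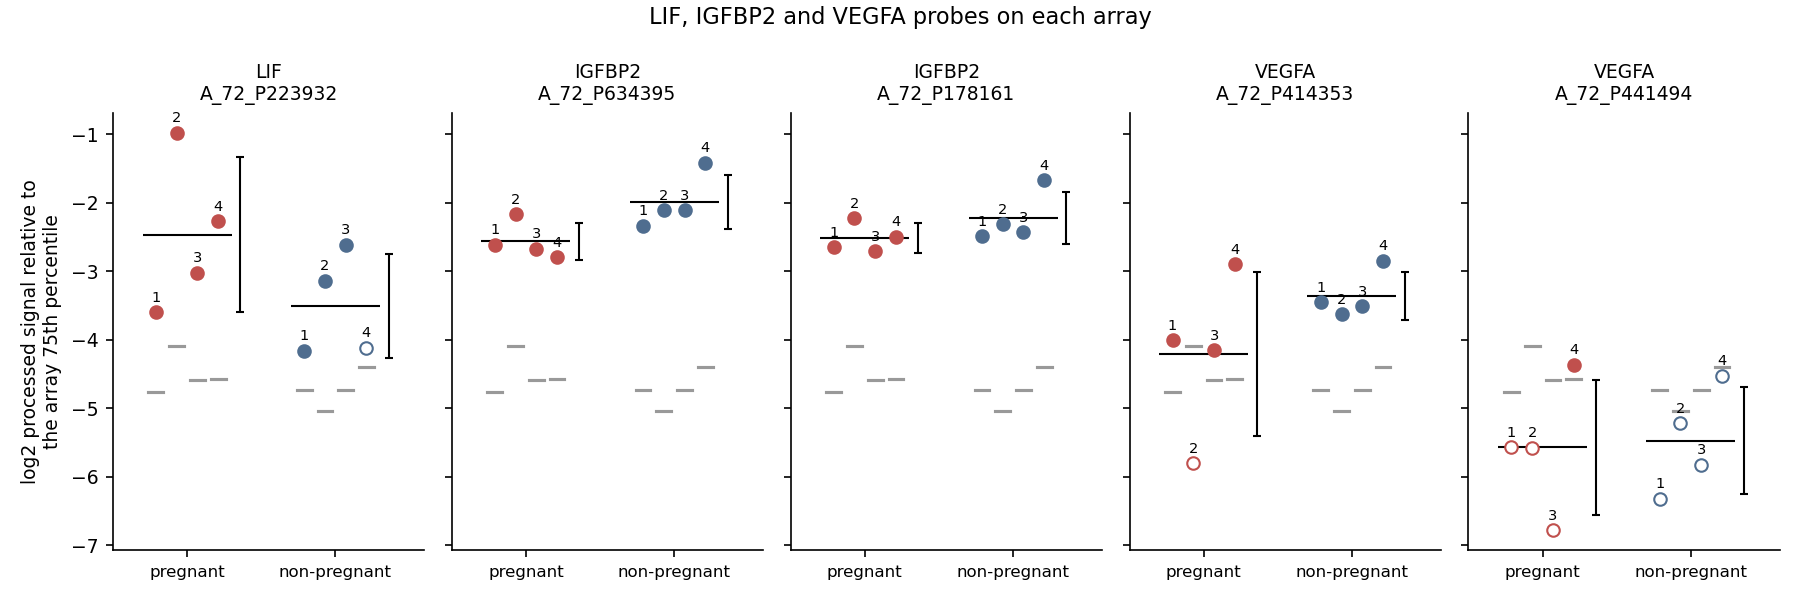
Log2 processed signal relative to the 75th percentile of the array (vertical axis) for each of the 5 probes, pregnant sows on the left and non-pregnant sows on the right of each panel. Points are arrays with their replicate number, filled where well above background; black lines are group means, bars are SD, and grey ticks are the lowest signal well above background on that array. The groups overlap at every probe. VEGFA A_72_P441494 lies above its grey tick on pregnant replicate 4 alone. On non-pregnant replicates 1 and 4 LIF lies nearer to its tick than VEGFA A_72_P414353 does.

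Markers of several cell types moved with the array on which LIF was highest. Pregnant replicate 2 had the highest mean of 2 measured erythroid genes of 14 listed (1.47, against -1.03 to 0.52 on the other arrays, each gene centred over the 8 arrays). The log2 of their summed signal ran from 3.19 to 7.04 in pregnant and from 4.30 to 5.89 in non-pregnant sows. It also had the highest mean of 7 neutrophil genes of 12 listed (0.84, with sums from 5.53 to 7.77 in pregnant and from 6.62 to 8.99 in non-pregnant sows). It had the lowest mean of 9 T cell genes of 13 listed (-0.55, with sums from 5.58 to 6.08 in pregnant and from 6.01 to 6.25 in non-pregnant sows). Epithelial and conceptus genes, 4 measured of 12 listed, averaged 0.64 there and -0.69 to 0.15 elsewhere, with sums from 4.67 to 5.02 in pregnant and from 4.77 to 5.51 in non-pregnant sows. For the neutrophil list and the epithelial and conceptus list, the highest sum was thus on a non-pregnant array. The 2 measures differ there on which array was highest. Monocyte and macrophage genes, 8 measured of 12 listed, had sums from 5.98 to 6.23 in pregnant and from 5.41 to 5.78 in non-pregnant sows. Of all the marker lists looked at, this was the only one whose sums did not overlap. Their means over centred genes did overlap, at -0.0087 to 0.41 in pregnant and -0.47 to 0.072 in non-pregnant sows. The part of these lists in the values of LIF, IGFBP2 and VEGFA was not tested.

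IGFBP2 had a lower mean in pregnant sows at both of its probes. At A_72_P634395 it read -2.61, -2.17, -2.67 and -2.79 in pregnant sows, against -2.33, -2.10, -2.11 and -1.41 in non-pregnant sows. All 4 pregnant values were below the non-pregnant median, and the groups met only where pregnant replicate 2 lay above non-pregnant replicate 1. The means were -2.56 ± 0.27 in pregnant and -1.99 ± 0.40 in non-pregnant sows (SD, n = 4 each), a log2 difference of -0.57 (SE 0.28), or 0.674 times.

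At A_72_P178161 IGFBP2 read -2.65, -2.22, -2.70 and -2.49 in pregnant sows, against -2.49, -2.31, -2.43 and -1.67 in non-pregnant sows. Here 3 of 4 pregnant values were below the non-pregnant median. The means were -2.52 ± 0.22 in pregnant and -2.22 ± 0.38 in non-pregnant sows (SD, n = 4 each), a log2 difference of -0.29 (SE 0.27), or 0.817 times. The direction was the same on both slides: -0.42 on slide 1 and -0.72 on slide 2 at A_72_P634395, and -0.22 and -0.37 at A_72_P178161.

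Both IGFBP2 probes were well above background on all 8 arrays, with signals from 30.5 to 65.8 units and 8.51 to 9.69 times the spot's error. They followed each other over the 8 arrays at Pearson r = 0.92 (Spearman 0.86), 0.93 after the group means were taken out. Across 941 genes with at least 2 probes kept, the same r had a median of 0.86 and quartiles of 0.50 and 0.96, and 61.1% of genes lay below IGFBP2. The probes share each array and its scaling. The 2 probes also shared their highest sow, non-pregnant replicate 4, and without that array their r was 0.76.

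Non-pregnant replicate 4 carried much of the difference in IGFBP2. Left out, the log2 difference was -0.38 at A_72_P634395 and -0.11 at A_72_P178161. That sow had the highest mean of the 2 measured leukocyte genes ITGB2 and SPI1, of 7 listed (0.54, against -0.34 to 0.43 elsewhere, with sums from 4.95 to 5.63 in pregnant and from 5.03 to 5.91 in non-pregnant sows). The part of this in the IGFBP2 values was not tested. Within groups IGFBP2 was steady: its SDs of 0.34 and 0.31 compare with medians of 0.54 and 0.55 over 4234 and 4221 probes of like level.

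**Figure D2:**
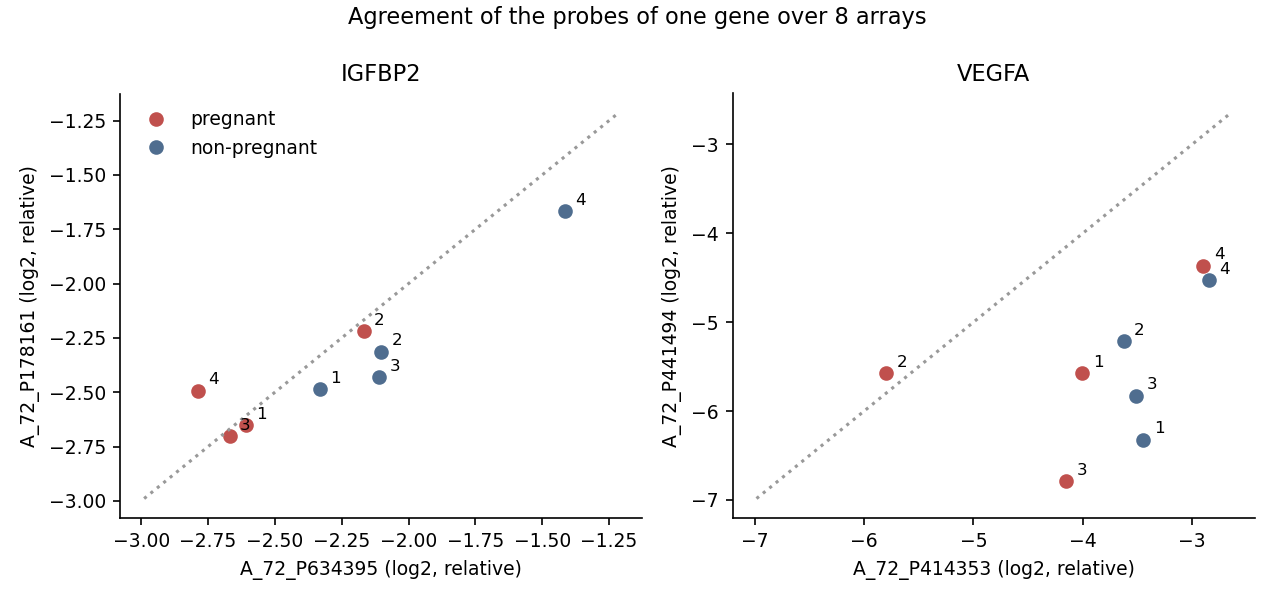
Values of 1 probe of a gene (horizontal axis) against its other probe (vertical axis), both in log2 relative to the 75th percentile of the array, for IGFBP2 and VEGFA. Points are arrays numbered by replicate, and the dotted line marks equal values. The IGFBP2 probes rise together (r = 0.92), whereas for VEGFA pregnant replicate 2 lies away from the rest (r = 0.42 with it, 0.80 without it).

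VEGFA had a lower mean in pregnant sows at A_72_P414353, and 1 array made most of that difference. The probe read -4.00, -5.80, -4.15 and -2.90 in pregnant sows, against -3.45, -3.63, -3.51 and -2.84 in non-pregnant sows. Pregnant replicates 1 to 3 lay below all non-pregnant values and pregnant replicate 4 lay above 3 of them. The means were -4.21 ± 1.20 in pregnant and -3.36 ± 0.35 in non-pregnant sows (SD, n = 4 each), a log2 difference of -0.86 (SE 0.53), or 0.552 times. Without pregnant replicate 2 the difference was -0.33, and without pregnant replicate 4 it was -1.29.

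The value of VEGFA on pregnant replicate 2 was not a measured level. The spot's background-subtracted signal was -0.212 there, and the deposited processed signal of 2.55 lay within 1% of the spot's error estimate of 2.54. The same held for every spot not significantly above background on that array, 8946 of 43803 spots (20.4%). The other 7 arrays had processed signals of 18.4, 13.03 and 29.9 units in pregnant replicates 1, 3 and 4, and 21.2, 20.2, 18.7 and 24.4 in non-pregnant sows. VEGFA was thus well above background on 3 pregnant and 4 non-pregnant arrays, and it entered the fit through the non-pregnant group. With dim signals raised to the lowest signal well above background of their array, the log2 difference was -0.43. With normexp, leaving out spots with a very bright local background, it was -0.097.

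**Figure D3:**
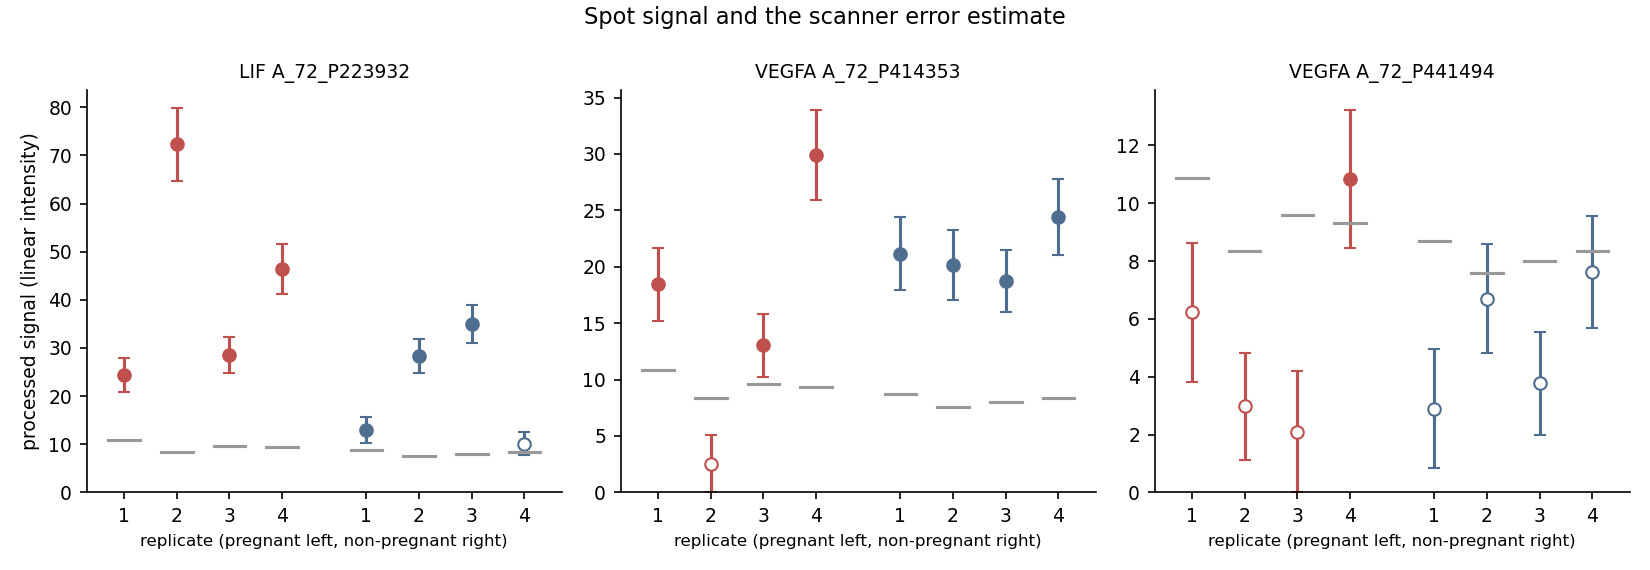
Processed signal in linear intensity units (vertical axis, from 0) with the scanner's error estimate as bars, for LIF and both VEGFA probes by replicate, pregnant sows on the left and non-pregnant sows on the right. Filled points are well above background, and grey ticks are the lowest signal well above background on that array. At A_72_P414353 the point of pregnant replicate 2 (2.55 units) is a surrogate as large as its error.

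The second VEGFA probe, A_72_P441494, was dim on nearly every array. It was well above background on 1 array, pregnant replicate 4, where it read -4.36, and it did not enter the fit. Its other values were -5.57, -5.58 and -6.78 in pregnant and -6.32, -5.22, -5.83 and -4.53 in non-pregnant sows. The group means, -5.57 ± 0.99 in pregnant and -5.47 ± 0.78 in non-pregnant sows (SD, n = 4 each), differed by -0.10. Replicate 4 of each group was the highest of its group at both VEGFA probes, and over 8 arrays the probes had r = 0.42 (Spearman 0.52).

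In the fit, 4 of the 5 probes took part, and LIF alone was at least 2-fold higher, as were 1.6% of all 26480 probes (2.14% were 2-fold apart in either direction, 0.54% of all probes lower). Of the 4, 0 had groups that did not overlap, against 1.57% of all probes (0.925% with pregnant sows higher and 0.65% with pregnant sows lower). Limma called 0 of the 26480 probes at an adjusted p under 0.05 (0% called, smallest adjusted p = 0.524), and 610 had an unadjusted p under 0.05. These shares come from the contrast that chose the genes, so nothing is read from them.

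**Figure D4:**
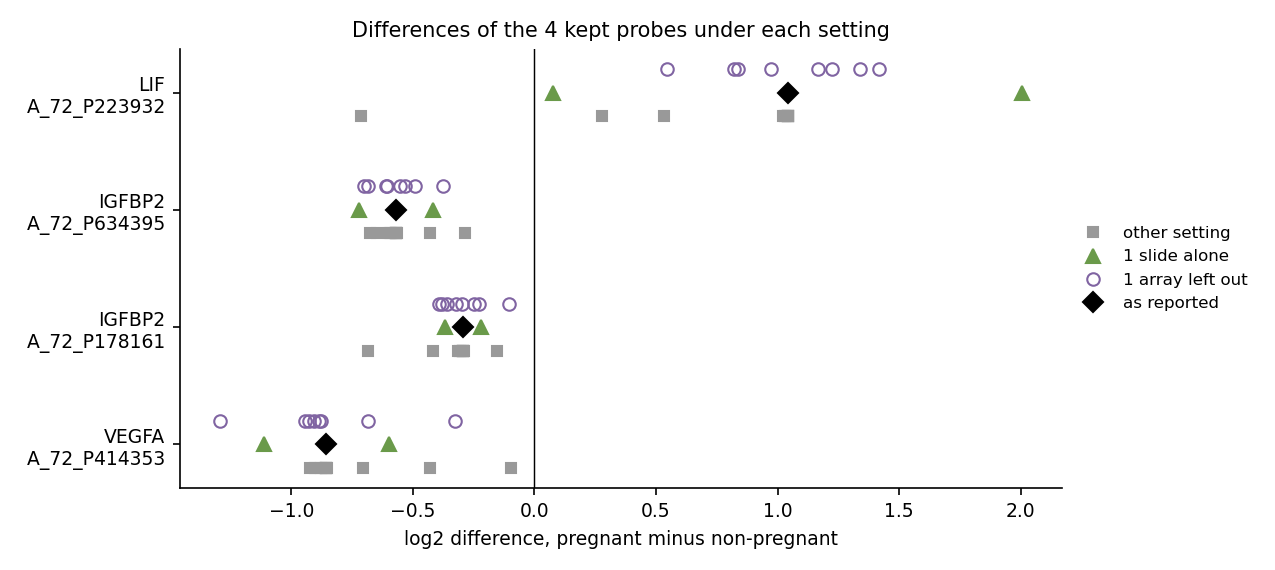
Log2 difference, pregnant minus non-pregnant (horizontal axis), of the 4 probes in the fit. Diamonds are the values reported, open circles leave out 1 array, triangles use 1 slide alone and grey squares are the other settings. LIF spans 0.078 to 2.00 between the slides, while both IGFBP2 probes and VEGFA stay below 0 under every setting drawn. The LIF square at -0.71 is the normexp correction with all spots.

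The slide, which did not enter the choice of genes, was tested with the group in the same model. Slide 2 minus slide 1 was 0.73 for LIF (means of -2.62 on slide 2 and -3.35 on slide 1, SE 0.55, limma adjusted p = 0.999). It was 0.31 (SE 0.28) and 0.39 (SE 0.25) for the IGFBP2 probes and -0.014 (SE 0.56) for VEGFA at A_72_P414353, each with the same adjusted p. Limma called 0 of all probes between slides (0% called), and 738 had an unadjusted p under 0.05.

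The patterns of the 3 genes over the sows were set against each other. LIF and VEGFA had r = -0.67 over 8 arrays, and -0.0078 without pregnant replicate 2, which held the highest LIF and the lowest VEGFA value. LIF and IGFBP2 had r = -0.25 at A_72_P634395 and -0.12 at A_72_P178161, and -0.51 and -0.42 without that array. IGFBP2 and VEGFA had r = 0.14 at A_72_P634395 and 0.18 at A_72_P178161, and 0.46 and 0.71 without it. The arrays share their scaling, and these values are descriptions.

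Among 1816 other named genes, 3 were listed for each gene as most like it by Pearson r over 8 arrays. As the highest of so many, such values are high by selection. LIF ran closest to an interferon alpha gene listed as IFN-ALPHA-4 (r = 0.95, Spearman 0.88), to SOX10, a transcription factor of neural crest cells (0.92, Spearman 0.83), and to NQO1, a quinone reductase (0.92, Spearman 0.95). All 3 were highest on pregnant replicate 2, like LIF. NQO1 read 3.97 on that array and between -1.11 and 1.09 on the remaining 7. Leaving it out gave r of 0.87, 0.84 and 0.80 for the 3 genes.

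IGFBP2 at A_72_P634395 ran closest to ATG4D, a protease of autophagy (r = 0.95, Spearman 0.93), to HCST, an adaptor of activating receptors on NK and T cells (0.94, Spearman 0.90), and to GABBR1, a subunit of the GABA-B receptor (0.91, Spearman 0.81). Without pregnant replicate 2 these were 0.96, 0.95 and 0.92. All 3 were highest on non-pregnant replicate 4, like IGFBP2, and HCST read 5.50 there, against 4.29 to 5.05 elsewhere. How far these r values rest on non-pregnant replicate 4 was not tested. VEGFA ran closest to OAT, an aminotransferase of ornithine (0.95, Spearman 0.86), to SAG, the arrestin of photoreceptors (0.94, Spearman 0.81), and to ITGAV, an integrin chain (0.93, Spearman 0.79). Without pregnant replicate 2, where VEGFA was a surrogate, these were 0.81, 0.75 and 0.71.

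No partner of LIF in signalling passed the test. Of 25 genes listed, 11 were measured, and limma called 0 in either direction, with 0 at an unadjusted p under 0.05 (0% of 1817 named genes were called, with 38 of the 1817 at an unadjusted p under 0.05). Of the 11, 8 had a positive log2 difference and 3 a negative one, with a median of 0.041 (0.11 without pregnant replicate 2), where 44.6% of named genes were above 0 and their median was -0.031. The shared receptor chain IL6ST averaged 0.44 ± 0.59 in pregnant and 0.37 ± 0.25 in non-pregnant sows, a difference of 0.074 (SE 0.32), or 0.34 without pregnant replicate 2, and its other probe differed by 0.0022. STAT3, the main transcription factor downstream of LIF, differed by 0.00040 (SE 0.31), and by -0.27 to -0.14 at its other 3 probes. Its feedback inhibitor SOCS3 differed by 0.098 (SE 0.34), and by -0.16 without pregnant replicate 2.

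STAT5B, a transcription factor activated by JAK kinases, differed by 0.24 (SE 0.24, limma adjusted p = 1.00), and by 0.028 at its other probe. The kinase JAK1 differed by -0.17 (SE 0.24), and by -0.023 to 0.17 at its other 4 probes, so its direction depended on the probe. No probe was matched to LIFR, so it could not be analysed.

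In the IGF axis, into which IGFBP2 falls, 10 of 28 listed genes were measured and limma called 0, with 0 at an unadjusted p under 0.05. Differences were positive for 5 and negative for 5, with a median of 0.12, or 0.046 without pregnant replicate 2. IGF2, a ligand of IGFBP2, read 0.75, 5.06, 1.89 and 1.42 in pregnant sows, against 0.13, 2.77, 0.53 and 1.57 in non-pregnant sows. Pregnant replicate 2 stood far above the rest, and the difference of 1.03 (SE 0.90, limma adjusted p = 1.00) was 0.10 without it. The other 3 probes of IGF2 differed by 0.15 to 0.30, and pregnant replicate 2 was the highest array at each. Without that array, the pregnant mean was below the non-pregnant mean at each of these 3 probes.

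IGFALS, a serum protein that holds growth factor and binding protein in a complex, differed by 1.00 (SE 0.70), and by 0.57 without pregnant replicate 2. It was well above background on 4 pregnant and 3 non-pregnant arrays, and entered the fit through the pregnant group, in which it was the higher. The kinase AKT1 differed by 0.51 (SE 0.45), and by 0.055 without pregnant replicate 2. The transcription factor FOXO3 differed by 0.26 (SE 0.31) and by 0.057 without it. The receptor IGF1R differed by -0.066 (SE 0.31), and by 0.037 without it. IGF1R was well above background on 3 pregnant and 4 non-pregnant arrays, and entered the fit through the non-pregnant group, in which it was the higher. The other binding proteins measured, IGFBP5, IGFBP6 and IGFBP7, differed by -0.0096, -0.052 and -0.048. Without pregnant replicate 2 IGFBP5 differed by -0.22 and IGFBP6 by -0.23, and the other probe of IGFBP6 differed by -0.24 with all arrays. No probe was matched to IGF2R or INSR, so they could not be analysed.

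Few partners of VEGFA could be named. Of 20 signalling genes listed 2 were measured and limma called 0, with 0 at an unadjusted p under 0.05. NOS3, the nitric oxide synthase of endothelium, differed by 0.68 (SE 0.43) and the vessel growth factor ANGPT2 by 0.33 (SE 0.39). NOS3 was well above background on 4 pregnant and 2 non-pregnant arrays, and entered the fit through the pregnant group, in which it was the higher. Its difference was 0.31 without pregnant replicate 2. No probe was matched to the receptors FLT1, KDR, NRP1 and NRP2, so they could not be analysed.

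Of 26 hypoxia genes listed 7 were measured, 4 with a positive and 3 with a negative difference (median 0.047, or 0.10 without pregnant replicate 2), and limma called 0, with 0 at an unadjusted p under 0.05. HIF1A, the oxygen-sensitive factor that induces VEGFA, averaged 0.70 ± 0.47 in pregnant and 0.75 ± 0.18 in non-pregnant sows (SD, n = 4 each), a difference of -0.050 (SE 0.28), or 0.083 without pregnant replicate 2. The other probe of HIF1A differed by -0.32. Its relative EPAS1 differed by -0.40 (SE 0.39), the kinase PDK1 by -0.35 (SE 0.32), the haem oxygenase HMOX1 by 0.25 (SE 0.26) and the glycolytic enzyme PGK1 by 0.17 (SE 0.24). Without pregnant replicate 2 those of EPAS1 and PDK1 were -0.15 and -0.11. The other probe differed by -0.48 for EPAS1 and by -0.011 for PDK1, and the other 2 probes of HMOX1 by 0.34 and 0.46.

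Other implantation factors had 18 measured genes of 38 listed, 11 with a positive and 7 with a negative difference, and limma called 0, with 3 at an unadjusted p under 0.05. Their median was 0.13, and -0.15 without pregnant replicate 2. The one gene of the list whose groups did not overlap, as in 1.38% of named genes, was LPAR3, which binds lysophosphatidic acid. All 4 pregnant and 0 non-pregnant arrays had it well above background, with measured means of -3.42 in pregnant and -5.43 in non-pregnant sows. Against a floor, described next, its fold was 2.48, and limma gave the measured difference an adjusted p of 0.941. Like LIF, it entered the fit through the pregnant group, where it was high. Nothing is therefore read from its lack of overlap or its fold. On each non-pregnant array the floor was the lowest signal well above background, or the probe's own if higher. A spot can exceed that floor without being well above background, as LIF did on non-pregnant replicate 4 (10.1 against 8.33 units). The fold is therefore not a strict bound. The tight junction protein CLDN3 differed by 0.96 (SE 0.40), the growth factor TGFA by 0.77 (SE 0.34) and the integrin chain ITGB1 by -0.37 (SE 0.24), each with a limma adjusted p of 1.00.

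**Figure D5:**
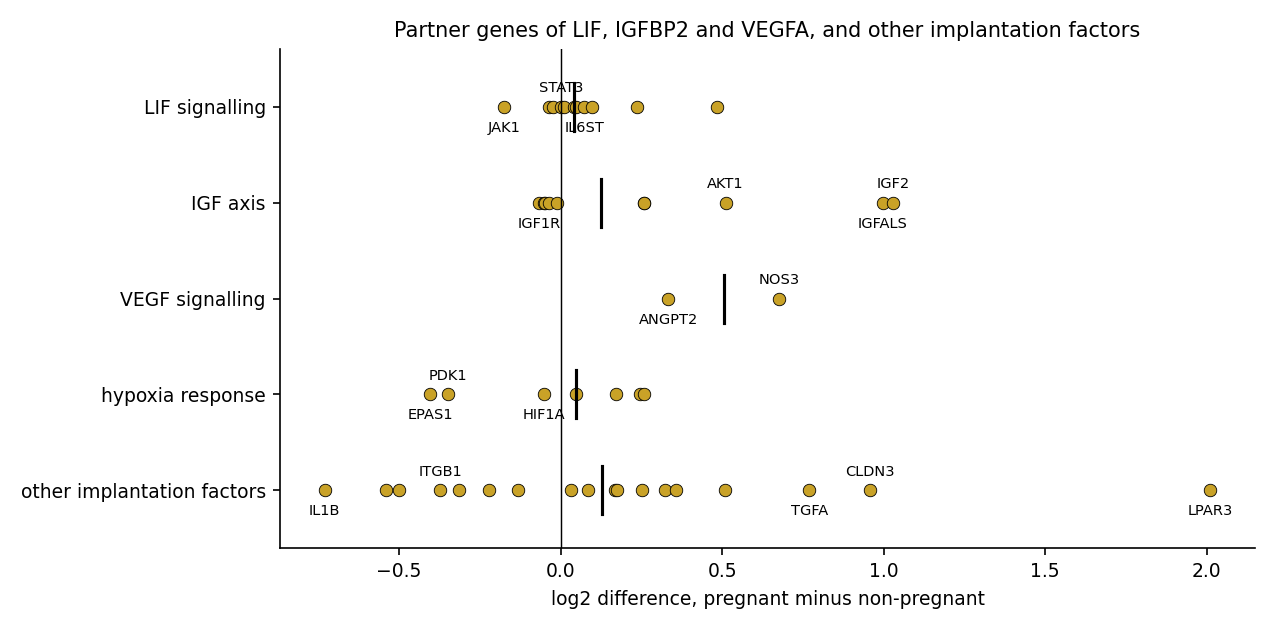
Log2 difference, pregnant minus non-pregnant (horizontal axis), of each measured gene in 5 lists, with 1 point per gene at its brightest probe and a vertical line at the median of the list. The median of the LIF signalling genes is 0.041. LPAR3 at 2.01 is drawn at its measured means, although it was not well above background on any non-pregnant array.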

How the data were processed

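Blood RNA was labelled with Cy3 and hybridised to 1 Agilent array per sow, per the labels' protocols. The deposited scanner files hold a processed intensity per spot on a linear scale, which per the file headers came from Feature Extraction 10.7.3.1 (10.7 in the submitters' processing notes), without normalization between arrays. The authors also deposited a log2 table (column medians 5.03, r with log2 of the own array's signal from 0.99895 on pregnant replicate 2 to 0.9999, same direction). Its normalization and centring are unknown, but its columns also share an upper quartile of 7.76. The LIF difference was 1.03 in this table and 1.03 under quantile normalization, and that of VEGFA was -0.90 in both. It may therefore not be a separate alternative from quantile normalization.

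Control and outlier spots were left out, which dropped 215 probes, and log2 signals were taken relative to the 75th percentile of each array. The filter kept 26480 probes (60.7%) that were well above background, by the deposited flags, throughout at least 1 group. Of 43603 probes, 5461 were matched by RefSeq accession to 2389 symbols of Sscrofa11.1, used for names only. A partner gene was represented by its brightest kept probe. Groups were compared with limma 3.58.1 (two-sided, Benjamini-Hochberg over all kept probes, threshold 0.05) in R 4.3.3, tested on simulated data. Tables used pandas 2.3.3 in Python 3.11.15.

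The genes, lists and tests were chosen with earlier results of these data known. Named are all probes of the 3 genes, measured receptors, up to 4 genes of smallest unadjusted p per list and 3 most like genes each. STAT3, HIF1A and the other binding proteins fall outside this rule and were added for their roles after their values were seen. A gene that the rule names is not reported here. Alternatives were other scalings, background corrections, filters, blocks, array weights, the deposited log2 table and each array left out.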

Additional observations from a re-analysis of the deposited data

How the results depend on the processing

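Over 24 or 25 alternatives per probe, both IGFBP2 probes and VEGFA kept a negative difference and LIF a positive one, except LIF under the planned normexp correction (-0.71). Some alternatives could not change the difference, so they say nothing about its sign. Among these were the slide and replicate blocks, in this balanced design, and another variance model. The normexp correction moved the median over all probes to -0.20, against -0.040 under the reported scaling. It also gave -0.69 at IGFBP2 probe A_72_P178161 and 0.89 for VEGFA between slides. Spots with a local background of up to 65243 units disturbed its fit, and the lowest corrected signals ran from 50.2 to 61.9. With such spots left out, a choice made after seeing the data, the differences were 0.28 (LIF), -0.29 and -0.15 (IGFBP2) and -0.097 (VEGFA). No scaling between arrays, added likewise, gave 1.04 for LIF. With 1 array left out LIF ranged from 0.54 to 1.42, IGFBP2 from -0.70 to -0.38 and from -0.39 to -0.11, and VEGFA from -1.29 to -0.33. The slide difference of VEGFA turned to 0.16 with array weights and ranged from -0.54 to 0.62 with 1 array left out. The median r of the 3 genes most like VEGFA was 0.75 without pregnant replicate 2. The replicate block, which could not change the log2 difference of LIF from 1.04, called 0 probes. The deviations of same-numbered sows had r = 0.22, 0.48, 0.43 and -0.12 for replicates 1 to 4, not over 0.1 in every pair. The best partner had the same number for replicates 2 and 3, and not for replicates 1 and 4. No label ties numbers to the half-sib pairs. Whether they mark those pairs is unknown, and the sows were not treated as paired. The block could not be fitted with the slide, which the numbers contain. Calls were counted under 21 alternatives for probes and 22 for partner genes, and were 0 in each (smallest adjusted p from 0.154 to 1.00, with 396 to 2038 probes at an unadjusted p under 0.05). Signals near background limit LIF and VEGFA.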

Other observations

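Some genes of the other lists shared with LIF a high value on pregnant replicate 2, and were picked out after their values were seen. CLDN4, a tight junction protein, read 0.78 there, against -3.13 to -1.11 on the other 7 arrays. PTGES, an enzyme of prostaglandin E2 synthesis, read 0.35 there, against -3.29 to -1.37. IGF1 read -0.20, against -3.12 to -1.69. SOCS3 read -1.28, against -2.69 to -1.55. For SOCS3 the gap to the next array was small. The array on which these genes were highest is the one with the lowest 75th percentile signal, and the part of that in their values was not tested.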
